A study of Mus musculus with 24 samples.

Results

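Transcripts of 8 membrane carriers of organic anions were followed in hepatocytes of old mice on a normal diet, on a high-fat diet, and on a high-fat diet with rapamycin. The set held the rows of the count and FPKM tables whose gene name was Slco1b2, Slco1a1, Slco1a4, Slc10a1, Slco2b1, Slco2a1, Abcc2 or Abcc3, so 8 of 55421 genes. All 8 passed the filter on low counts that left 13847 genes for testing. The set was chosen by the differences of Slco1a1 and Slco2a1 between these groups, which stood among the largest in earlier results of the same animals, and the other 6 were added as relatives and functional partners. The differences of Slco1a1 and Slco2a1 are therefore given as descriptions with no p-value, and they stand in the counts of called transporters only as a description. The other 6 have adjusted p-values from the fit over all genes, but these come from the same contrasts of the same animals.

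Hepatocytes clear organic anions such as bile salts, bilirubin, steroid conjugates and many drugs from portal blood. Sodium-independent carriers of the Slco family (the organic anion transporting polypeptides) and the sodium-dependent bile salt carrier Slc10a1 take them up across the sinusoidal membrane. ATP-driven pumps then move the conjugated products out, Abcc2 across the canalicular membrane into bile and Abcc3 back across the basolateral membrane into blood. In rodent liver the Slco genes are also known for differing between the sexes, with Slco1a1 higher in males.

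The animals were male C57BL/6J mice given vehicle or rapamycin food from the age of 4 months. The diet was switched at 18 months in the high-fat groups, which then ate 60% of their calories as fat for 9 weeks, and the remaining animals kept the normal diet. The groups were ND+veh (normal diet with vehicle, n = 8), HFD+veh (high-fat diet with vehicle, n = 7) and HFD+eRapa (high-fat diet with eudragit-encapsulated rapamycin at 42 ppm, n = 9). No group combined normal diet with rapamycin, so a difference of HFD+eRapa from ND+veh holds the diet and the drug together. Hepatocytes were isolated by liver perfusion and a density gradient, each sample was 1 animal, and polyadenylated RNA was sequenced.

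The libraries held 17739252 to 25945134 counts assigned to genes. Albumin (Alb) ranged from 33462 to 120282 counts per 1000000 (CPM) over the libraries, and all 10 hepatocyte markers passed the filter. Markers of other liver cells were also present, none at 0 in every library, and they were not even between groups. The summed level of 10 endothelial markers was 344 ± 168 CPM in ND+veh (SD, n = 8; 108 to 564), 589 ± 390 in HFD+veh (n = 7; 130 to 1077) and 189 ± 106 in HFD+eRapa (n = 9; 81.3 to 400). The 12 macrophage markers summed to between 52.0 and 1518 CPM in ND+veh, between 174 and 6335 in HFD+veh and between 19.3 and 1042 in HFD+eRapa. The 10 stellate markers summed to between 33.0 and 264 CPM, between 35.1 and 668 and between 21.9 and 104 in the same order. In HFD+eRapa against HFD+veh, all 10 endothelial, 10 of 12 macrophage and all 10 stellate markers were called lower, whereas in HFD+veh against ND+veh 1, 4 and 3 of them were called higher and in HFD+eRapa against ND+veh 1, 0 and 4 lower. Of the 10 hepatocyte markers, 1, 2 and 1 rose and 2, 0 and 0 fell in HFD+veh against ND+veh, HFD+eRapa against HFD+veh and HFD+eRapa against ND+veh. Their sum was 124095 ± 23825 CPM in ND+veh (SD, n = 8), 126662 ± 11637 in HFD+veh (n = 7) and 93866 ± 19003 in HFD+eRapa (n = 9). The ranges of these sums overlapped. Lymphocyte markers summed to at most 35.7, 552 and 31.7 CPM, neutrophil markers to at most 8.18, 47.5 and 12.5, and cholangiocyte markers to at most 26.9, 425 and 57.6. In the diet comparison 3 of 3 lymphocyte, 2 of 5 neutrophil and 3 of 3 cholangiocyte markers tested were called higher, and with eRapa on the diet 3, 2 and 1 of them were called lower. In bulk RNA of this kind, fewer cells of a type and less RNA per cell cannot be told apart. The part of these other cells in the transporter differences was not tested. Some values are also given with a marker covariate, the mean z-score of 40 endothelial, macrophage, stellate, lymphocyte and neutrophil markers. Because these markers themselves differed between the groups, such a fit cannot separate cell content from diet or drug.

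Levels between genes are compared on the deposited FPKM scale, which divides by transcript length. Slco1b2, the main sodium-independent uptake carrier of mouse hepatocytes, had a mean of 358 FPKM in ND+veh (SD 41.9, n = 8), and Slc10a1 had 364 (SD 151). Slco1a1 followed at 98.0 (SD 36.8), then Abcc2 at 73.9 (SD 24.2), Abcc3 at 49.4 (SD 34.2), Slco2b1 at 48.3 (SD 10.1), Slco1a4 at 25.5 (SD 4.80) and Slco2a1 at 13.6 (SD 3.76). Slco1b2 and Slc10a1 each had the highest FPKM of the 8 in 4 of 8 ND+veh animals, so their order was not fixed, and Abcc3 and Slco2b1 likewise lay within 1 SD of each other. In HFD+veh, Slco1a1 fell to the last place in 7 of 7 animals at 1.96 FPKM (SD 2.33). In HFD+eRapa, Slco1a1 ranked 3 to 5 (3 to 7 in ND+veh) at 120 FPKM (SD 43.1), and Slco2a1 was last in 9 of 9 at 2.95 (SD 0.667). Slco1b2 was the highest of the 8 in 8 of 9 HFD+eRapa animals and Slc10a1 in the remaining 1.

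**Figure D1:**
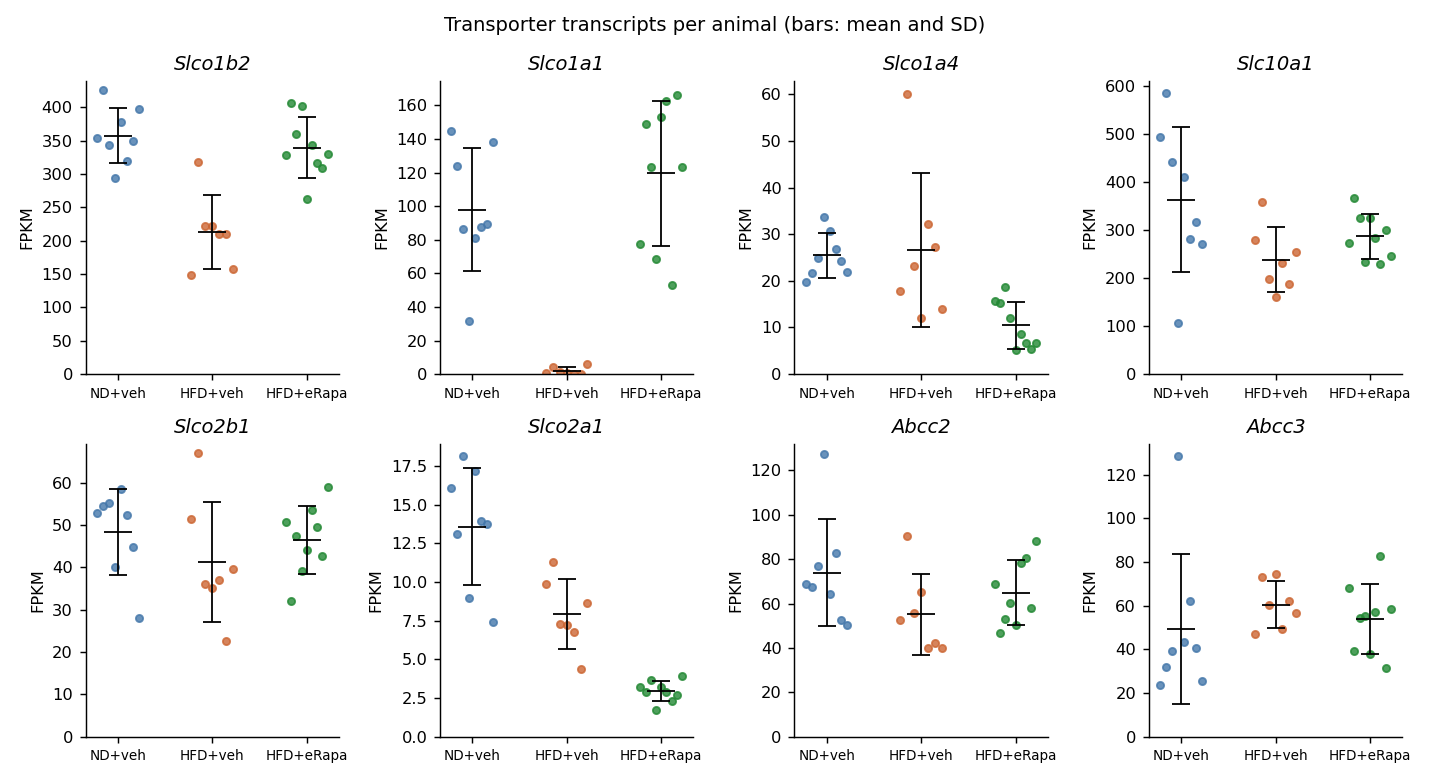
FPKM of the 8 transporters in every animal (points), by group, with the mean and SD as bars. The 7 HFD+veh points of Slco1a1 lie near the zero line, below all points of the other groups, and the 9 HFD+eRapa points of Slco2a1 lie below all others of that gene.

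The first comparison asked what the diet changed in vehicle-fed old animals, the second what rapamycin changed on the high-fat diet, and the third how far rapamycin-fed animals on high-fat diet still differed from normal-diet controls. The 3 comparisons share animals, so they are not independent of each other. In HFD+veh against ND+veh, 3 of 8 transporters were called lower (Slco1a1, Slco1b2 and Slco2a1) and 0 higher, where 25.9% of all 13847 genes were called in either direction and 9.86% were lower. In HFD+eRapa against HFD+veh, 2 were called higher (Slco1a1 and Slco1b2) and 2 lower (Slco1a4 and Slco2a1), against a background of 32.0% in either direction, 10.9% higher and 21.1% lower. In HFD+eRapa against ND+veh, 2 were lower (Slco1a4 and Slco2a1) and 0 higher, against 13.5% in either direction, 6.93% higher and 6.54% lower. A call is an adjusted p under 0.05 in edgeR's quasi-likelihood test with Benjamini-Hochberg adjustment over all genes tested. Of the 6 transporters other than Slco1a1 and Slco2a1, the counts were 1 lower, then 1 higher and 1 lower, then 1 lower. Because the set was chosen with such differences known, nothing is read from these counts. The median log2 fold change of the 8 was -0.47, 0.26 and 0.01 in the 3 comparisons, beside 0.05, -0.04 and -0.03 over all genes tested.

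**Figure D2:**
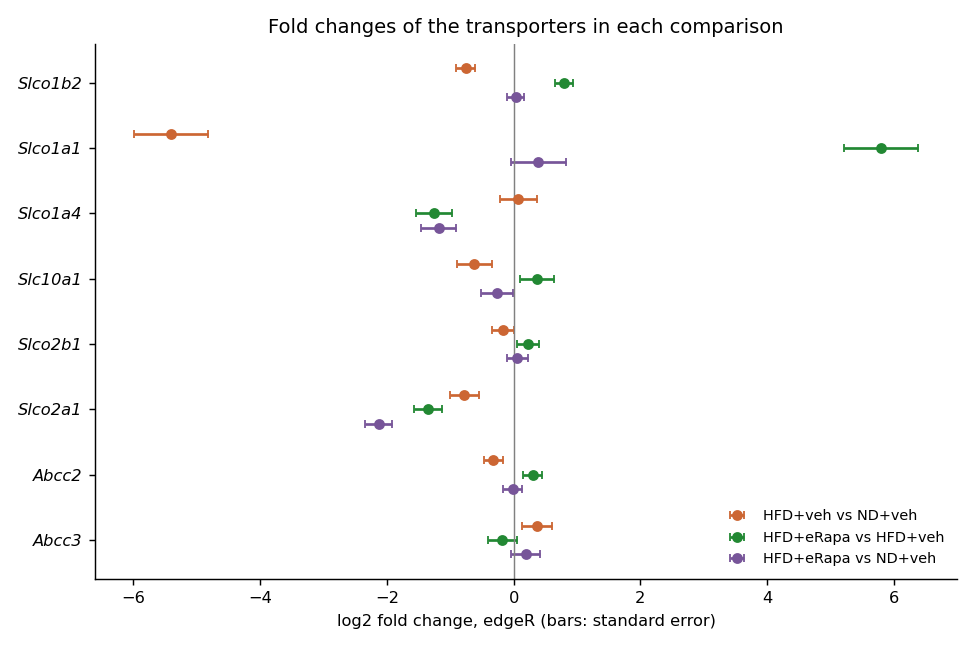
Log2 fold change of each transporter in the 3 comparisons from the edgeR fit, with the standard error as bars and a vertical line at no change. Slco1a1 lies at -5.41, 5.80 and 0.39, Slco1b2 shows the same order over a smaller range, Slco1a4 and Slco2a1 lie left of the line in both comparisons of HFD+eRapa, and the other 4 lie within 1 log2 unit of it.

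Slco1b2, Slco1a1 and Slco1a4 lie in 1 cluster on chromosome 6 (GRCm38, 141524368 to 142322981, 799 kb) that holds 9 protein-coding genes. In order they are Slco1c1, Slco1b2, Gm5724, Slco1a4, Slco1a1, Gm6614, Slco1a6, Slco1a5 and Iapp. The other 6 genes of the cluster had at most 12 counts in any library and failed the filter, so in these cells the 3 members carried nearly all counts of the cluster. Slco1b2 (141629518 to 141686646, plus strand) is read in the opposite direction to its neighbours Slco1a4 (141805440 to 141856199, minus strand) and Slco1a1 (141907282 to 141946962, minus strand), and a gap of 51.1 kb separates the last 2. Of the 50-base words in the Slco1a1 transcripts, 1.64% also occur in another gene, nearly all of them in Slco1a4, so few reads could be exchanged between them. The 250 bases before the RefSeq start (GRCm38.p6) of these 3 neighbours, and of Slco2a1, are printed 5′ to 3′ on the strand of the gene, because these are the members whose levels differed most between groups. Capitals mark matches, on either strand, to 3 motifs. The core of many nuclear receptor sites was searched as AGGTCA. The STAT site was searched as TTCNNNGAA and the TATA box as TATAAA.
Slco1b2 (chr6:141629268-141629517, plus strand): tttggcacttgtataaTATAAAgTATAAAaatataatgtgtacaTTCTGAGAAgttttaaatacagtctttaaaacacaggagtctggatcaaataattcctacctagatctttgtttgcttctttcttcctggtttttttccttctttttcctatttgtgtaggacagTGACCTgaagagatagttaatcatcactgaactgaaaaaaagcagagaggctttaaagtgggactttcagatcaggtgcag
Slco1a1 (chr6:141946963-141947212, minus strand): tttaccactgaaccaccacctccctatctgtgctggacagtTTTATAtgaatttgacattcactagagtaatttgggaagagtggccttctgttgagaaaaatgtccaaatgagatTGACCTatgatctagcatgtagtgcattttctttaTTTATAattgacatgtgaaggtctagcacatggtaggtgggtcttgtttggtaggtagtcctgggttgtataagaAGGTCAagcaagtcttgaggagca
Slco1a4 (chr6:141856221-141856470, minus strand): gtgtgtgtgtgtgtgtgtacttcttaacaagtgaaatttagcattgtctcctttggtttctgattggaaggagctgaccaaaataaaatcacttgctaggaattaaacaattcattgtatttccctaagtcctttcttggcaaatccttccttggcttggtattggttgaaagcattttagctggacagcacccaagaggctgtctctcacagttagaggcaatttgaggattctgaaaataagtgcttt
Slco2a1 (chr9:103008237-103008486, plus strand): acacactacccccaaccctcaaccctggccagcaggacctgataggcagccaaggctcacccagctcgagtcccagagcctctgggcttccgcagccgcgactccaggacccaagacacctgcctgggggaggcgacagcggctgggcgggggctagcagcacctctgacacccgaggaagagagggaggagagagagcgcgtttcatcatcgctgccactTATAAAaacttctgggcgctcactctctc
Slco1a1 has AGGTCA letters at 24 and 134 bases before the start and TATAAA letters, in the reverse orientation, at 99 and 209. Slco1b2 has AGGTCA letters at 81, a STAT-type match at 206 and TATAAA at 227 and 234 bases before the start. Slco1a4 holds no match in this window, and Slco2a1 holds TATAAA at 29 bases before a RefSeq start that lies inside the longer GENCODE gene. Among 27025 RefSeq promoters of the same length, 13.8% hold AGGTCA, 7.18% TTCNNNGAA and 13.0% TATAAA. Of the 7 members with a promoter in the table, 3, 2 and 4 hold them. A match describes letters and is not evidence of binding.

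Slco1b2 fell on the high-fat diet and was back at the normal-diet level with rapamycin. Its lowest, median and highest levels were 1097, 1270 and 1572 CPM in ND+veh, 544, 779 and 1178 in HFD+veh and 987, 1241 and 1536 in HFD+eRapa. The HFD+veh animals lay below every ND+veh animal in 6 of 7 cases, the exception being replicate 2 at 1178 CPM. The mean fell from 1304 ± 158 CPM (SD, n = 8) to 791 ± 211 (n = 7), at -0.76 on the log2 scale (SE 0.15, edgeR adjusted p = 0.00115). With eRapa it was 1264 ± 171 CPM (n = 9), which on the log2 scale was 0.79 over HFD+veh (SE 0.14, edgeR adjusted p = 0.000505) and 0.03 over ND+veh (SE 0.14, edgeR adjusted p = 0.928). Both calls held in all 33 alternative settings, between -0.88 and -0.71 for the diet and between 0.70 and 0.91 for the drug.

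Slco1a1, a sinusoidal carrier of bile salts and steroid sulphates, had the largest fold differences between group means of the 8. It stood at 124, 338 and 557 CPM (lowest, median and highest) in ND+veh, at 2.06, 4.95 and 23.8 in HFD+veh and at 212, 481 and 657 in HFD+eRapa. All 7 HFD+veh animals lay below all animals of the other groups, which overlapped each other. The HFD+veh values rest on 45 to 505 counts per library. The mean was 42.6-fold lower in HFD+veh (8.84 ± 8.66 CPM, SD, n = 7) than in ND+veh (377 ± 144, n = 8), and 53.2-fold higher in HFD+eRapa (471 ± 172, n = 9) than in HFD+veh. The log2 fold changes were -5.41 (SE 0.58) for the diet, 5.80 (SE 0.59) for eRapa on the diet and 0.39 (SE 0.44) for HFD+eRapa against ND+veh. With the marker covariate, the same 3 values were -5.16, 5.29 and 0.13.

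The third neighbour, Slco1a4, a broad carrier best known for digoxin and bile salt uptake, went a different way. Its lowest, median and highest levels were 50.7, 66.0 and 80.6 CPM in ND+veh, 30.6, 61.3 and 152 in HFD+veh and 14.3, 23.9 and 45.0 in HFD+eRapa. The HFD+veh animals reached both below and above the ND+veh range, and all 9 HFD+eRapa animals lay below all 8 ND+veh animals. Between the vehicle groups it differed by 0.07 on the log2 scale (SE 0.29, edgeR adjusted p = 0.880). With eRapa the level fell, at -1.25 on the log2 scale against HFD+veh (SE 0.28, edgeR adjusted p = 0.00276) and -1.18 against ND+veh (SE 0.28, edgeR adjusted p = 0.00507). Both calls held in 33 of 33 alternatives, at edgeR adjusted p = 0.0219 and 0.00470 with the marker covariate. Complete separation of 2 groups was uncommon over all genes. It held for 2.44% of genes between the vehicle groups (1.21% higher, 1.23% lower), where 1 of 8 transporters, Slco1a1, lay lower. It held for 2.59% between HFD+eRapa and HFD+veh (1.29% higher, 1.29% lower), where 2 of 8 did, Slco1a1 higher and Slco2a1 lower. It held for 3.37% between HFD+eRapa and ND+veh (2.14% higher, 1.23% lower), where 2 of 8, Slco1a4 and Slco2a1, lay lower. Nothing is read from these counts either.

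Summed over the cluster, Slco1 transcript was about as high in HFD+eRapa as in ND+veh. The shares of Slco1b2 and Slco1a1 overlapped between those 2 groups, that of Slco1a4 did not, and none was tested. The sum of the 3 genes was 481 ± 69.0 FPKM in ND+veh (SD, n = 8), 241 ± 70.3 in HFD+veh (n = 7) and 470 ± 58.1 in HFD+eRapa (n = 9). Slco1b2 made up 74.7% ± 4.00 of it in ND+veh, 88.6% ± 3.47 in HFD+veh and 72.6% ± 7.82 in HFD+eRapa. The share of Slco1a1 was 19.8% ± 5.69, 0.863% ± 1.18 and 25.2% ± 8.30 in the same order, and that of Slco1a4 was 5.51% ± 1.87, 10.5% ± 3.49 and 2.20% ± 1.01. Each HFD+eRapa animal had a Slco1a4 share of at most 3.74%, below the 3.78% of the lowest ND+veh animal and the 5.11% of the lowest HFD+veh animal. Shares of 1 sum move against each other by construction.

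**Figure D3:**
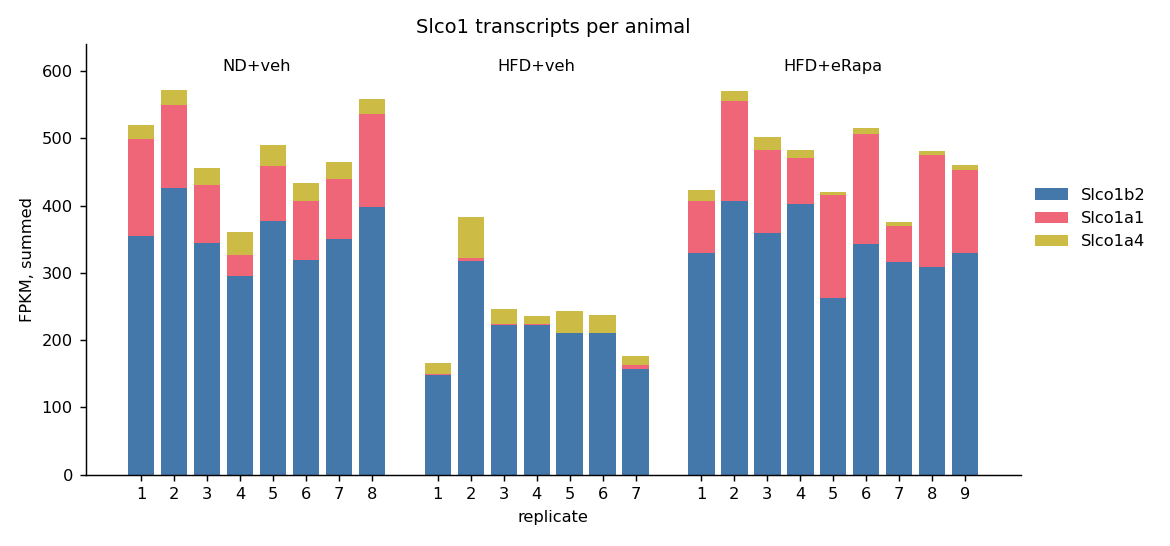
Summed FPKM of Slco1b2, Slco1a1 and Slco1a4 in every animal, stacked by gene and ordered by replicate within group. The HFD+veh bars reach 167 to 382 FPKM with almost no Slco1a1 part, the tallest being replicate 2, while ND+veh bars reach 360 to 571 and HFD+eRapa bars 376 to 570.

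Slc10a1 (chromosome 12, 80953183 to 80968705, minus strand), the sodium-taurocholate carrier, showed no call in any comparison of all animals. It ranged over 173, 586 and 978 CPM (lowest, median and highest) in ND+veh, 271, 379 and 584 in HFD+veh and 382, 475 and 623 in HFD+eRapa, and the groups overlapped throughout. On the log2 scale it stood at -0.62 for the diet (SE 0.27, edgeR adjusted p = 0.0927), 0.36 for eRapa on the diet (SE 0.27, edgeR adjusted p = 0.310) and -0.26 for HFD+eRapa against ND+veh (SE 0.26, edgeR adjusted p = 0.574). The ND+veh range was set at its low end by replicate 4, at 173 CPM. Without that animal the fall on the high-fat diet passed the threshold, at -0.80 (SE 0.22, edgeR adjusted p = 0.0111). In 31 of 33 alternatives it stayed without a call, and the estimates ran from -0.80 to -0.35.

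The efflux pumps differed less. Abcc2 (chromosome 19, 43782192 to 43840740, plus strand), the canalicular exporter of bilirubin glucuronides, stood at 435, 521 and 1099 CPM in ND+veh, 339, 417 and 749 in HFD+veh and 424, 528 and 749 in HFD+eRapa. On the log2 scale it was -0.32 for the diet (SE 0.15, edgeR adjusted p = 0.123), 0.30 for eRapa on the diet (SE 0.15, edgeR adjusted p = 0.126) and -0.02 against ND+veh (SE 0.14, edgeR adjusted p = 0.962). Leaving out HFD+veh replicate 2, the highest of its group, brought the first 2 past the threshold, at -0.46 (edgeR adjusted p = 0.0148) and 0.45 (edgeR adjusted p = 0.0127). Each of these 2 stayed without a call in 32 of 33 alternatives. Abcc3 (chromosome 11, 94343295 to 94392997, minus strand), the basolateral exporter, stood at 121, 205 and 665 CPM in ND+veh, 233, 320 and 376 in HFD+veh and 131, 266 and 360 in HFD+eRapa. It was the only 1 of the 8 besides Slco1a4 with a positive diet estimate, 0.36 (SE 0.24, edgeR adjusted p = 0.257), followed by -0.18 (SE 0.23, edgeR adjusted p = 0.589) for eRapa on the diet and 0.19 (SE 0.22, edgeR adjusted p = 0.657) against ND+veh. Without ND+veh replicate 4, which was the highest of all 24 animals, Abcc3 was called higher on the high-fat diet at 0.60 (SE 0.20, edgeR adjusted p = 0.0293). In 31 of 33 alternatives its diet difference stayed without a call. The FPKM ratio of Abcc3 to Abcc2 within an animal was 0.630 ± 0.213 in ND+veh (SD, n = 8; 0.341 to 1.01), 1.15 ± 0.249 in HFD+veh (n = 7; 0.810 to 1.47) and 0.831 ± 0.171 in HFD+eRapa (n = 9; 0.542 to 1.03), so the ranges overlapped. The groups were not tested on this ratio.

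ND+veh replicate 4 bore on several of these values at once. It was the lowest of its group for Slco1a1 (124 CPM), Slc10a1 (173 CPM) and Slco1b2 (1097 CPM) and the highest for Abcc2 (1099 CPM) and Abcc3 (665 CPM). Its 10 hepatocyte markers summed to 73951 CPM, the lowest of the 8 ND+veh animals, and its cholangiocyte markers to 26.9 CPM, the highest. With it left out, 5 of 8 transporters instead of 3 were called in HFD+veh against ND+veh, 4 lower and 1 higher. Over all genes, the number called in this comparison was 3584 with every animal and 2106 to 4479 when 1 animal was left out. Nothing is read from the transporter count. HFD+veh replicate 2 was the highest of its group for 7 of the 8 transporters, all but Slco1a1, with a macrophage sum of 210 CPM near the low end of its group.

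**Figure D4:**
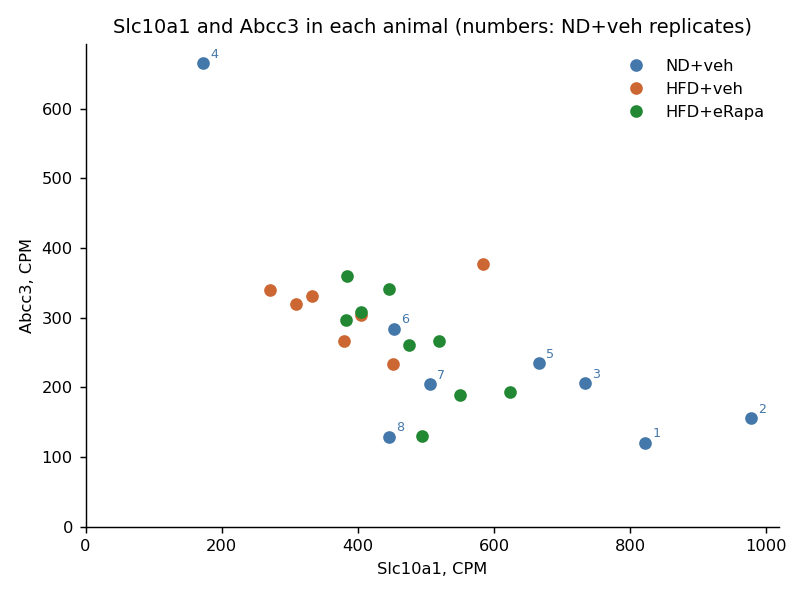
CPM of Slc10a1 (horizontal) and Abcc3 (vertical) in every animal, coloured by group, with the replicate number beside each ND+veh point. ND+veh replicate 4 lies alone at 173 and 665 CPM, apart from all other animals.

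Slco2b1 (chromosome 7, 99657804 to 99711340, minus strand), a carrier of steroid sulphates and statins, stayed within overlapping ranges in all groups. It stood at 100.4, 178 and 198 CPM in ND+veh, 86.5, 131 and 231 in HFD+veh and 112, 168 and 204 in HFD+eRapa. The log2 fold changes were -0.17 (SE 0.18, edgeR adjusted p = 0.501), 0.22 (SE 0.17, edgeR adjusted p = 0.340) and 0.06 (SE 0.17, edgeR adjusted p = 0.885). No alternative brought a call.

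Slco2a1 (chromosome 9, 102988712 to 103096002, plus strand), the prostaglandin transporter, stepped down over the 3 groups. Its lowest, median and highest levels were 58.0, 103 and 134 CPM in ND+veh, 34.2, 57.4 and 82.2 in HFD+veh and 11.3, 21.5 and 28.3 in HFD+eRapa. The vehicle groups overlapped, and all 9 HFD+eRapa animals lay below all animals of both. The means were 100.1 ± 28.0 CPM (SD, n = 8), 58.6 ± 16.3 (n = 7) and 21.8 ± 5.10 (n = 9). The log2 fold changes were -0.78 (SE 0.23) for the diet, -1.36 (SE 0.22) for eRapa on the diet and -2.13 (SE 0.22) for HFD+eRapa against ND+veh. Slco2a1 is also known from endothelium, whose markers differed between these groups. The endothelial marker sums were 344, 589 and 189 CPM in ND+veh, HFD+veh and HFD+eRapa, and their part in the Slco2a1 differences was not tested. With the marker covariate the 3 log2 fold changes were -0.52 (SE 0.19), -1.78 (SE 0.20) and -2.30 (SE 0.17). As a description, the lower call of Slco2a1 in HFD+veh against ND+veh held in 32 of 33 alternatives. The setting that lost it was the marker covariate, which also gave the diet estimate nearest to no change.

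**Figure D5:**
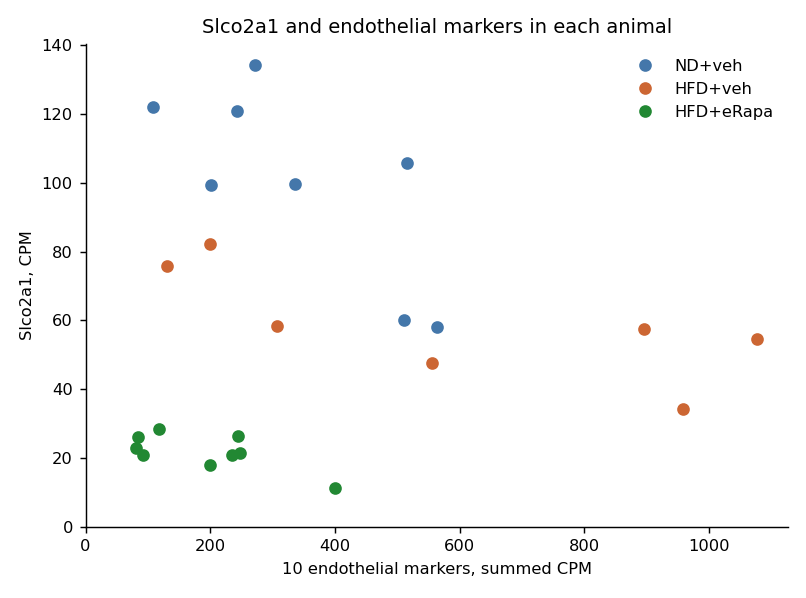
CPM of Slco2a1 (vertical) against the summed CPM of 10 endothelial markers (horizontal) in every animal, coloured by group. HFD+eRapa animals lie at 11.3 to 28.3 CPM of Slco2a1, with endothelial sums of 81.3 to 400 CPM. The endothelial sums ran from 108 to 564 CPM in ND+veh and from 130 to 1077 in HFD+veh.

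Other carriers and partners were read from lists, whose counts stand beside the shares of all genes called, 16.0%, 10.9% and 6.93% higher and 9.86%, 21.1% and 6.54% lower in the 3 comparisons. No list was tested as a set. Of 10 other Slco genes only Slco3a1 passed the filter, at 0.62 on the log2 scale for the diet (SE 0.48, edgeR adjusted p = 0.342) and -1.89 for eRapa on the diet (SE 0.48, edgeR adjusted p = 0.00511), the latter being -0.03 with the marker covariate. Of 13 Slc22 and other uptake or exchange carriers, 12 were tested. In the 3 comparisons 2, 7 and 3 rose and 3, 1 and 1 fell, with medians of -0.07, 0.61 and 0.21. Slc22a28, an organic anion carrier of the Slc22 family, fell on the diet (-3.70, SE 0.47, edgeR adjusted p = 1.94e-05) and rose with eRapa (4.10, SE 0.47, edgeR adjusted p = 7.27e-06). Its mean level was 11.1, 0.855 and 14.1 CPM in ND+veh, HFD+veh and HFD+eRapa. Mean FPKM was 15.4, 7.99 and 16.7 in the same order, a much smaller difference, so the size of the change is uncertain. Slc22a7, the hepatic organic anion transporter 2, rose with the diet (1.34, SE 0.43, edgeR adjusted p = 0.0271), a call lost in 7 of 33 alternatives, and rose again with eRapa (1.62, SE 0.43, edgeR adjusted p = 0.00729), a call lost with the marker covariate. Against ND+veh it stood at 2.96 in HFD+eRapa (SE 0.44, edgeR adjusted p = 6.99e-05). Slc51b, a subunit of the basolateral bile salt exporter, fell with eRapa, at -1.39 against HFD+veh (SE 0.37, edgeR adjusted p = 0.00663, not called with the marker covariate) and -1.40 against ND+veh (SE 0.36, edgeR adjusted p = 0.00930). The level of Slc51b was low throughout, with means of 0.934, 0.929 and 0.335 CPM in ND+veh, HFD+veh and HFD+eRapa.

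Among 13 other pumps, all of the ABC family except Atp8b1, 1, 2 and 2 rose and 3, 3 and 2 fell in the 3 comparisons. Their medians were -0.21, -0.03 and -0.26. Abcb11, the canalicular bile salt export pump, fell on the diet (-0.81, SE 0.19, edgeR adjusted p = 0.00429). It showed no call with eRapa on the diet (-0.16, SE 0.18, edgeR adjusted p = 0.536) and stayed lower than in ND+veh (-0.97, SE 0.17, edgeR adjusted p = 0.000446), so its values run unlike those of Slco1b2. Abcb4, the canalicular phospholipid floppase, rose with eRapa by 0.91 over HFD+veh (SE 0.12, edgeR adjusted p = 3.58e-05) and by 0.55 over ND+veh (SE 0.12, edgeR adjusted p = 0.00270). Abcg2, a pump of sulphate conjugates, exceeded its ND+veh level in HFD+eRapa by 0.84 (SE 0.19, edgeR adjusted p = 0.00344), and Abcb1a, a multidrug pump also found in endothelium, fell in the same comparison, at -1.49 (SE 0.36, edgeR adjusted p = 0.00669). Abcc1 rose on the diet (2.22, SE 0.73, edgeR adjusted p = 0.0293) and fell with eRapa (-2.45, SE 0.71, edgeR adjusted p = 0.0111), but neither call held with the marker covariate, where the second value was 0.10.

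The 16 genes listed as regulators of such carriers, most of them transcription factors, had medians of -0.33, 0.41 and 0.08. Of these, 2 fell in the first comparison, 6 rose in the second and 1 rose in the third. The first and last of these counts lie near the shares of all genes called in those directions, 9.86% and 6.93%, and 10.9% of all genes rose in the second. Hnf4a and the bile acid receptor Nr1h4 were called in none of them. Hnf4a stood at -0.35 (SE 0.18, edgeR adjusted p = 0.157), 0.42 (SE 0.18, edgeR adjusted p = 0.0771) and 0.07 (SE 0.17, edgeR adjusted p = 0.864). Nr1h4 stood at 0.03 (SE 0.14, edgeR adjusted p = 0.873), 0.32 (SE 0.14, edgeR adjusted p = 0.0745) and 0.35 (SE 0.13, edgeR adjusted p = 0.0753). Foxa2, a forkhead factor of hepatocytes, fell on the diet, at -1.05 (SE 0.24, edgeR adjusted p = 0.00450). Ppara, the fatty acid receptor, rose with eRapa by 1.06 over HFD+veh (SE 0.24, edgeR adjusted p = 0.00236), and its rise of 0.71 over ND+veh (SE 0.22, edgeR adjusted p = 0.0363) was lost in 15 of 33 alternatives.

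Of 5 membrane scaffold partners, 2, 1 and 0 rose and 1, 2 and 0 fell, with medians of -0.08, 0.04 and -0.11. Pdzk1, a PDZ protein that holds Slco1a1 at the sinusoidal membrane, fell on the diet (-0.65, SE 0.16, edgeR adjusted p = 0.00726) and rose with eRapa (0.82, SE 0.16, edgeR adjusted p = 0.000907), with 0.17 against ND+veh (SE 0.15, edgeR adjusted p = 0.532). Moesin (Msn), abundant in non-parenchymal cells, moved the other way (2.31, SE 0.75, edgeR adjusted p = 0.0278, and -2.77, SE 0.73, edgeR adjusted p = 0.00651), and neither call held with the marker covariate. Of 11 genes that make or conjugate organic anions, 1, 0 and 0 rose and 2, 4 and 0 fell, with medians of -0.06, -0.04 and -0.28. Biliverdin reductase (Blvra) rose on the diet by 1.16 (SE 0.26, edgeR adjusted p = 0.00399), and Ugt1a5, a glucuronosyltransferase whose last exons are shared with the other Ugt1a genes so that its count is uncertain, fell, at -1.21 (SE 0.28, edgeR adjusted p = 0.00435). Heme oxygenase 1 (Hmox1) fell with eRapa, at -1.92 (SE 0.65, edgeR adjusted p = 0.0280), a call lost with the marker covariate, where the value was 0.26.

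Because Slco1a1 is male-biased in mouse liver, sex-biased liver genes were read beside it. Of 11 male-biased genes 10 were tested, and 6 fell on the diet, 7 rose with eRapa over HFD+veh and 4 exceeded ND+veh in HFD+eRapa, beside 9.86%, 10.9% and 6.93% of all genes, with medians of -1.37, 2.51 and 0.47. Hsd3b5, a male-specific hydroxysteroid dehydrogenase, had 41.5 ± 46.7 CPM in ND+veh, 0.119 ± 0.122 in HFD+veh (0 to 6 counts per library) and 119 ± 125 in HFD+eRapa. It fell on the diet, at -8.40 on the log2 scale (SE 1.37, edgeR adjusted p = 0.000315), and rose with eRapa, at 9.98 (SE 1.41, edgeR adjusted p = 5.18e-05), and the size of both depends on the prior count at such low counts. Mup7, a major urinary protein gene with near-identical copies, exceeded ND+veh in HFD+eRapa by 4.38 (SE 1.03, edgeR adjusted p = 0.00532). Of 10 female-biased genes 5 were tested, and 2 rose on the diet, 4 fell with eRapa against HFD+veh and 3 were lower than in ND+veh, beside 16.0%, 21.1% and 6.54% of all genes, with medians of 1.46, -3.33 and -2.27. Cyp2b13 rose on the diet (2.83, SE 0.99, edgeR adjusted p = 0.0382), a call lost in 11 of 33 alternatives. Cyp2a4 fell with eRapa, at -4.64 against HFD+veh (SE 1.10, edgeR adjusted p = 0.00362, not called with the marker covariate) and -4.06 against ND+veh (SE 1.06, edgeR adjusted p = 0.0113, lost without ND+veh replicate 4). The Mup, Cyp2a and Cyp2b families hold near-copies, so counts of their single genes are uncertain.

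The genes whose log2 CPM over the 24 libraries followed that of Slco1a1 most closely, among 7820 genes searched, were Elovl3 (Pearson r = 0.935), Ccdc162 (0.922), Chp1 (0.920), Serpina4-ps1 (0.915) and Cyp2e1 (0.893). With group means removed, r was 0.724, 0.357, 0.496, 0.752 and 0.338, so for Ccdc162, Chp1 and Cyp2e1 most of the likeness lay between groups. Elovl3, a fatty acid elongase, had 352 ± 138 CPM in ND+veh, 59.7 ± 67.1 in HFD+veh and 356 ± 59.8 in HFD+eRapa. Cyp2e1, the ethanol-oxidising cytochrome P450, had 4601 ± 932, 1252 ± 1164 and 4741 ± 883 CPM. For Slco2a1 the closest were Saraf (r = 0.872, 0.640 with group means removed), Cds2 (0.847, 0.255) and Capn10 (0.840, 0.845). Saraf, a regulator of calcium entry, had 180 ± 14.4 CPM in ND+veh, 149 ± 8.37 in HFD+veh and 126 ± 9.50 in HFD+eRapa. These coefficients describe libraries that share 3 groups and have no test.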

How the data were processed

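Per the labels and the study's methods, the authors aligned reads to mm10 with STAR (GENCODE vM23 annotation), handled alignments with SAMtools 1.1.0, and deposited counts per gene from HTSeq 0.11.2 and FPKM values from Cufflinks, 1 column of each per animal. The strand setting of the counting was not given in the sources used here. Groups came from the sample labels, which place all animals in 1 batch.

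Counts were tested with edgeR 4.0.16 (R 4.3.3; filterByExpr, TMM, robust quasi-likelihood fit of all 24 libraries, Benjamini-Hochberg adjustment over 13847 genes, threshold 0.05). Standard errors are the log2 fold change divided by the root of its F statistic. CPM is counts per 1000000 counts assigned to genes. Log2 CPM used a prior count of 2. Alternatives used DESeq2 1.42.0 and limma 3.58.1 on log2(FPKM + 1) and log2(FPKM + 0.1), subsets, a replicate block, the mean z-score of 40 non-hepatocyte markers as a covariate, and each animal left out. The script was tested on simulated counts, drawn independently per gene with changes placed in HFD+veh only. These held no shared difference in cell content, so the test gives no error rate for the real data. Replicates of a group differed beyond sampling noise (lowest chi-square per degree of freedom 8.41).

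The members, gene lists and tests were chosen with earlier results of these data known. Text names the 8 members, the called gene with the largest rise and fall in each other list, Hnf4a, Nr1h4, Ppara, Abcb11 and Pdzk1, and the 5 and 3 genes most like Slco1a1 and Slco2a1, at a mean log2 CPM of at least 3. An item among the always-named genes is not reported here. Gene coordinates are those of GENCODE M21 on GRCm38, the assembly of mm10, and promoter sequences are from RefSeq (7 of 8 members matched). Overlapping genes on either strand had at most 56 counts in any library.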

Additional observations from a re-analysis of the deposited data

Results flagged for a closer look

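Within groups, each transporter's log2 CPM, and the summed Slco1 and related values, were searched for a single animal far from the others by Dixon's ratio at the 95% level. Of 30 groups of values, 4 held such an animal, where chance alone gives about 1.5. The groups of values share animals, and summed Slco1 contains Slco1b2. They are therefore not independent, and nothing is read from the excess. Both ND+veh cases were replicate 4, with Slco1a1 at 6.58 log2 CPM (the other 7 at 8.25 to 9.14) and Slc10a1 at 7.07 (the others at 8.85 to 9.92). Both HFD+veh cases were replicate 2, with Slco1b2 at 10.13 log2 CPM (the others at 9.27 to 9.61) and summed Slco1 transcript at 382 FPKM (the others at 167 to 247). No cause was tested.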

How the results depend on the processing

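The calls of Slco1b2 and Slco1a4 kept their direction and their side of the threshold in all 33 alternatives, though they come from the contrasts known when the set was chosen. The members called, with Slco1a1 and Slco2a1 among them as a description, numbered 3 to 5 in HFD+veh against ND+veh when 1 animal was left out (5 without ND+veh replicate 4), 4 to 5 in HFD+eRapa against HFD+veh and 2 to 2 in HFD+eRapa against ND+veh. With ND+veh replicate 4 and HFD+veh replicate 6 left out together, a choice made after both were seen to stand apart, 5 were called in the diet comparison, Slc10a1 at -0.73 (edgeR adjusted p = 0.0309) and Abcc3 at 0.61 (edgeR adjusted p = 0.0422) among them.

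The count over all genes moved more. In HFD+veh against ND+veh it was 3584 (2218 higher, 1366 lower), against 2333 with only the 2 groups fitted, 2340 with limma on log2(FPKM + 0.1) (1158 higher, 1182 lower), 1715 with the marker covariate (885 higher, 830 lower) and 2300 without ND+veh replicate 4 and HFD+veh replicate 6 (1179 higher, 1121 lower). Leaving out 1 animal gave 2106 (without HFD+veh replicate 6, 988 higher and 1118 lower) to 4479. In HFD+eRapa against HFD+veh it was 4432 (1507 higher, 2925 lower), against 2532 with the replicate block (1073 higher, 1459 lower), 855 with the marker covariate (383 higher, 472 lower) and 3269 to 5061 without 1 animal, and in HFD+eRapa against ND+veh 1865, or 1462 to 2232. Of 73 genes tested in the other lists, 25, 38 and 16 were called in the 3 comparisons, with 16 and 16 of the first 2 left by the marker covariate and ranges of 16 to 32 (16 without HFD+veh replicate 3 or 6), 31 to 41 and 14 to 19 without 1 animal. With the covariate, the eRapa differences of Abcc1 (0.10), Msn (0.080) and Hmox1 (0.26) turned positive with no call. The cause was not tested. As CPM per kb of exonic length, summed Slco1 was 346 in ND+veh and 350 in HFD+eRapa.

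Groups share replicate numbers, and no source used here says what they mark. Deviations of same-numbered animals had a mean r of 0.316, -0.245 and -0.203 in the 3 comparisons and r over 0.1 in 5 of 7, 2 of 7 and 2 of 8 pairs. These values ran in both directions and cannot decide whether the numbers mark pairs. No pairing was assumed, because no source used here gives one. The replicate block gave 2461, 2532 and 1575 called genes and changed no call of the transporters. Depth did not limit the members, the lowest of which had 45 counts in a library.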
